A study of Mus musculus with 16 samples.

Results

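The genes described here are 39 members of the NRF2, glutathione and antioxidant system, followed in cultured mouse aortic smooth muscle cells that lacked Hey2 or were wild type. Members were found by gene symbol in the annotation of the array platform. That lookup used no measured value, but the list itself was chosen with earlier results of these data known. Of the 39 listed genes, 35 had at least 1 probe set carrying their symbol alone, and all 35 were tested among 14299 genes. The signals of Prdx1, Prdx6, Ftl1 and G6pdx were not analysed here. The cells came from aortas stripped of their outer layer, had a mixed C57BL/6 and 129SvJ background in both genotypes, and were between passage 10 and 20. Both genotypes were starved for 48 h in medium with 0.4% serum and then given 5 ng/ml of human PDGF-BB, a growth factor that drives smooth muscle cells to divide and migrate. RNA was hybridised at 0, 15, 30, 60, 120, 180, 240 and 480 min, with 1 Affymetrix array for each genotype and time, giving 8 Hey2 knockout arrays and 8 wild-type arrays.

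NRF2, encoded by Nfe2l2, is a transcription factor that is held at a low level by KEAP1, which marks it for degradation. Oxidants and electrophiles modify KEAP1, and NRF2 then accumulates, pairs with small MAF proteins and binds antioxidant response elements beside genes that make glutathione, regenerate thioredoxin, supply NADPH and detoxify reactive compounds. In vascular smooth muscle, growth factors such as PDGF raise reactive oxygen species as part of their signal. Hey2, the gene removed, encodes a transcriptional repressor downstream of Notch.

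How many animals or isolates each genotype represents is not stated in the labels. Time points therefore took the place of replicates, and p-values reflect only how far these time points scatter, part of which may be technical. Without an untreated time course among the arrays used, PDGF-BB and time in culture cannot be told apart. In bulk RNA, fewer cells of a type and less RNA per cell cannot be told apart either. Both the 60 and the 480 min wild-type libraries went against their labelled order. Over all tested genes, each less its genotype mean, the array labelled wild type 60 min correlated with the knockout 480 min library at r = 0.57 and with its own time point at r = -0.33. The library labelled wild type 480 min correlated at r = 0.46 with the knockout 60 min library and at r = -0.38 with its own time point, whereas the other 6 same-time pairs ran from 0.38 to 0.52. All 23 members called between genotypes on 16 arrays were called the same way without the 60 and 480 min arrays, their log2 differences moving by at most 0.115, and 3 more were called. Hey2 had 1 probe set, and the sources used here do not place it relative to the deletion. Its signal ran from 23.3 to 63.3 on the knockout arrays and from 14.0 to 113.3 on the wild-type arrays. It was lower in the knockout at 0 to 30 min (log2 difference -1.14, limma adjusted p = 0.00409), higher in the knockout at 120 to 240 min (0.80, adjusted p = 0.0311) and not called over all arrays (-0.19, adjusted p = 0.697). At 60, 120, 180 and 240 min it had 28.2, 23.3, 34.8 and 41.0 in the knockout, against 16.1, 14.0, 19.3 and 16.6 in wild type. The targeted gene thus went against the labels at 4 of 8 times, so knockout and wild type below mean the libraries labelled so, and each direction rests on those labels.

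Cultures of the genotypes also differed in markers of cell type and of division, and these values stand beside every genotype difference below; their part in the result was not tested. The 14 contractile smooth muscle genes had a summed signal of 16720 to 20240 in the knockout and 26040 to 30920 in wild type, with 1 higher and 10 lower. Acta2 and Tagln were well above the filter signal of 16 on every array of both genotypes. Myh11, in contrast, ran from 3.89 to 12.6 in the knockout, below that signal, and from 21.3 to 39.0 in wild type. Cnn1, Actg2 and Lmod1 were also below it on their lowest knockout array. The 14 mesothelial and epithelial genes summed to 17570 to 20730 in the knockout and 3629 to 5386 in wild type, with 12 higher and 1 lower. All 11 tested mitosis genes were higher in the knockout (1291 to 3289, against 567.2 to 1397 in wild type). Of 9 adventitial fibroblast genes 5 were higher and 1 lower, of 6 macrophage and leukocyte genes 1 was higher and 0 lower, and of 3 endothelial genes 0 were called. Of 10 listed macrophage and leukocyte genes 6 were tested, and of 8 endothelial genes 3; Ptprc, Pecam1 and Cdh5, which define leukocytes and endothelium, were not among those tested. 

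Over the whole time course the antioxidant genes were mostly higher in Hey2 knockout cells. Of the 35 tested members 22 were higher, 1 was lower and 12 were not called, whereas 16.5% of all tested genes were called higher and 14.1% lower. The median member difference was 0.37 on the log2 scale, against -0.02 over all genes. Without the 60 and 480 min arrays 23 members were higher and 3 lower (all genes 20.9% and 20.2%), with a median of 0.42. Differences are knockout minus wild type on a log2(signal + 4.856) scale after quantile normalization, which understates changes of dim genes. A call means a Benjamini-Hochberg adjusted p under 0.05 over all genes in limma with time as a factor, and ± marks the standard error of that fit unless SD is stated. Counted by role, both regulators and all 3 genes of glutathione synthesis and reduction were higher, as were 6 of 8 glutathione transferases and both metallothioneins. None of the 4 tested genes of the quinone, haem, iron and epoxide group was called. The plot of differences by role shows this unevenness.

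**Figure D1:**
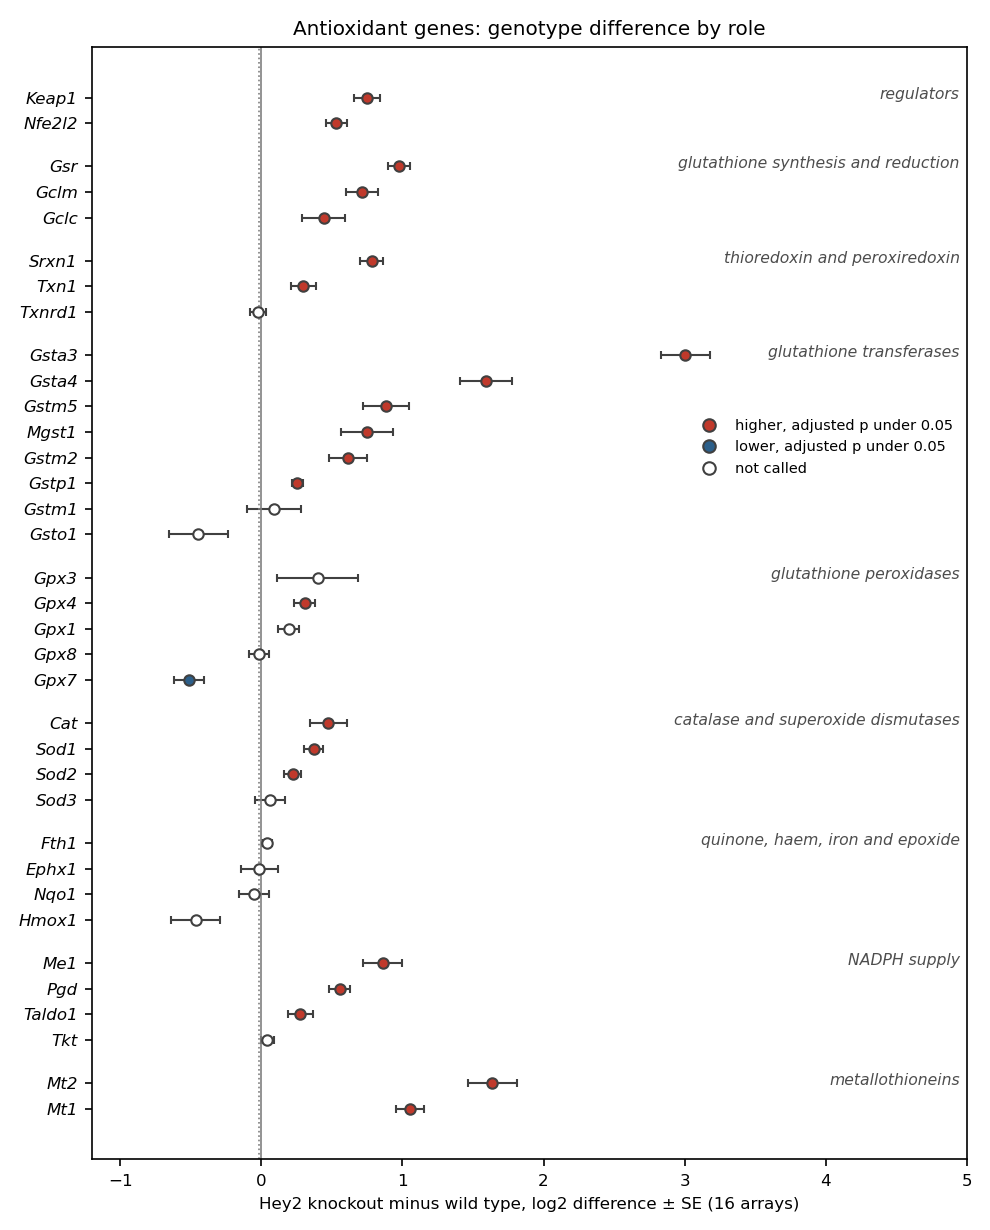
Each point is 1 of the 35 tested members, placed at its log2 difference (Hey2 knockout minus wild type, 16 arrays) with the standard error of the fit, grouped by role; filled points passed an adjusted p of 0.05, the solid line marks 0 and the dotted line the median of all genes. Gsta3 stands farthest to the right at 3.01, 22 members are filled as higher, and Gpx7 at -0.51 is filled as lower.

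The regulators were both higher in the knockout. Nfe2l2, which encodes NRF2 itself, had signals of 2913, 2436, 3165, 3760, 3300, 2590, 3240 and 3561 on the knockout arrays from 0 to 480 min. On the wild-type arrays in the same order it had 1893, 1944, 2210, 1906, 2269, 1946, 2638 and 2412. Knockout was above wild type at all 8 times, although the ranges overlapped, and the difference was 0.53 ± 0.07 (adjusted p = 3.41e-04, 1.44-fold). Keap1, which encodes the adaptor that targets NRF2 for degradation, had 486.5, 490.5, 407.1, 503.6, 412.6, 500.1, 442.9 and 597.6 in the knockout. Its wild-type signals were 305.1, 333.1, 288.1, 302.4, 208.1, 297.3, 278.4 and 263.2. Every knockout array was above every wild-type array, with a difference of 0.75 ± 0.09 (adjusted p = 1.57e-04). Neither regulator was called for a change with time in either genotype.

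Groups that did not overlap were found for 7 of the 35 members, all with the knockout above: Keap1, Gsr, Gsta3, Gsta4, Gstp1, Mt1 and Mt2. Among all genes, 5.38% had every knockout array above every wild-type array and 3.08% had every knockout array below; 0 members were of the second kind.

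Glutathione is made by glutamate-cysteine ligase, whose catalytic subunit is encoded by Gclc and whose modifier subunit is encoded by Gclm, and its oxidised form is returned to the reduced form by Gsr. Gsr gave 1066, 907.8, 1063, 1055, 1008, 1082, 1160 and 1185 across the knockout time course. In wild type it gave 505.5, 495.1, 549.2, 662.5, 540.2, 532.5, 529.2 and 504.1. The groups were far apart at every time, including 60 min where the wild-type library was its highest, and the difference was 0.98 ± 0.08 (adjusted p = 6.23e-06, 1.97-fold). Gclm ranged over 380 to 563.8 with a median of 447.9 in the knockout, against 183.7 to 449.3 with a median of 269.6 in wild type. Its difference was 0.71 ± 0.12 (adjusted p = 7.93e-04), with the knockout higher at all 8 times. Gclc was higher by 0.44 ± 0.15 (adjusted p = 0.0483), higher at 7 of 8 times and lower at 480 min. That call lay at the threshold: it held in 9 of 19 alternative analyses, and a dimmer Gclc probe set differed by 1.26.

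Within the thioredoxin group, Srxn1, sulfiredoxin, which repairs over-oxidised peroxiredoxins, was higher in the knockout at all 8 times. Its knockout signals were 501.7, 560.4, 639.6, 1255, 1663, 1899, 1545 and 907.3. Its wild-type signals were 321.2, 300.3, 318.1, 648.7, 977.3, 1054, 948.7 and 655.5. Srxn1 thus moved with time in both genotypes while the knockout stayed higher, by 0.78 ± 0.08 (adjusted p = 3.31e-05). Txn1, thioredoxin, was higher by 0.30 ± 0.09 (adjusted p = 0.0224) at 7 of 8 times, a call that held in 12 of 19 alternatives. Txnrd1, thioredoxin reductase, differed by -0.03 ± 0.06 and was not called, with a 95% interval from -0.15 to 0.10.

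The glutathione transferases, which join glutathione to electrophiles, held the largest genotype difference of the tested members. Gsta3, an alpha class transferase, had signals of 928.4, 750.8, 910.3, 913.1, 772.3, 663.6, 613.2 and 480.3 in the knockout. In wild type its signals were 104.6, 98.4, 119.4, 46.8, 90.3, 70.9, 87.5 and 105.4. The lowest knockout array was well above the highest wild-type array, and the fitted difference was 3.01 ± 0.18, or 8.04-fold (adjusted p = 6.61e-07). A second Gsta3 probe set differed by 2.77. Gsta4, an alpha class enzyme that acts on the lipid peroxidation product 4-hydroxynonenal, had 4018, 3990, 3731, 3861, 3447, 3334, 2791 and 2173 in the knockout. Its wild-type signals were 1536, 1560, 1429, 533.7, 1143, 1025, 780.7 and 1384. Its difference was 1.59 ± 0.18, or 3.01-fold (adjusted p = 7.78e-05), and 1.54 without the 60 and 480 min arrays.

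Among the remaining transferases the differences were smaller. The mu class genes Gstm5 and Gstm2 were higher by 0.88 ± 0.16 and 0.61 ± 0.14, and the microsomal Mgst1 by 0.75 ± 0.18. These 3 were higher at 7 of 8 times, the exception being 480 min for each. Gstm1, the neighbour of Gstm2 on chromosome 3, differed by 0.09 ± 0.19 and was not called (95% interval -0.33 to 0.51). Mu class genes are close in sequence, so a probe set may read more than 1 of them, and their separate values are uncertain to that extent. Gstp1, the pi class transferase, had 6290, 6404, 6115, 5868, 6098, 6257, 5868 and 5831 in the knockout. In wild type it had 5340, 5281, 5268, 5146, 4937, 5109, 4609 and 5192. The shift was small, 0.25 ± 0.04 (adjusted p = 6.02e-04), but the groups did not overlap. Gsto1, an omega class enzyme, went the other way at -0.45 ± 0.21 and was not called on all 16 arrays (adjusted p = 0.132). Without the 60 and 480 min arrays it was lower by 0.40 on the log2 scale, with an adjusted p of 0.00558.

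Enzymes that remove peroxide and superoxide directly differed less. Cat, catalase, was higher by 0.47 ± 0.13 (adjusted p = 0.0183), and its other probe set by 0.17, which was not called. The superoxide dismutases Sod1, of the cytosol, and Sod2, of mitochondria, were higher by 0.37 ± 0.07 and 0.22 ± 0.06. Of the other Sod1 probe sets, those at 0.31 and 0.51 were called higher and that at 0.16 was not called. The Sod2 call held in 13 of 19 alternatives, and its 3 other probe sets, at 0.03, 0.32 and -0.38, were not called. Sod3, the extracellular form, differed by 0.06 ± 0.11 and was not called. Of the glutathione peroxidases, Gpx4, which reduces lipid hydroperoxides in membranes, was higher by 0.31 ± 0.08. A dimmer Gpx4 probe set differed by 0.21 and was not called. Gpx1 and Gpx8 differed by 0.19 ± 0.07 and -0.01 ± 0.07 and were not called, though Gpx1 was called higher without the 60 and 480 min arrays (adjusted p = 0.0251). Gpx3 was dim, with medians of 8.99 in the knockout and 6.01 in wild type, below the filter signal of 16, and its difference of 0.40 ± 0.29 was not called. Gpx7, a peroxidase of the endoplasmic reticulum, was the single member called lower. It ranged over 100.9 to 163.3 in the knockout, with a median of 122.8, against 143.8 to 258.9 in wild type, with a median of 181.1. The knockout was below wild type at 8 of 8 times, with a difference of -0.51 ± 0.11 (adjusted p = 0.0043).

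NADPH supplies the electrons for glutathione and thioredoxin reductases. Me1, malic enzyme, ranged over 1316 to 2213 in the knockout, with a median of 1746, and over 464.6 to 1396 in wild type, with a median of 1021. It was higher at all 8 times by 0.86 ± 0.14 (adjusted p = 8.75e-04). Pgd, phosphogluconate dehydrogenase of the pentose phosphate pathway, was higher by 0.56 ± 0.07 (adjusted p = 2.3e-04), also at all 8 times. Taldo1, transaldolase of the same pathway, was higher by 0.27 ± 0.09 (adjusted p = 0.0372), and Tkt, transketolase, differed by 0.04 ± 0.05 and was not called. The Taldo1 call held in 12 of 19 alternatives.

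Of the quinone, haem, iron and epoxide group, which holds the NRF2 targets Nqo1 and Hmox1, 0 of 4 tested genes were called on 16 arrays. Nqo1, a quinone reductase, ranged over 128.5 to 184.7 in the knockout, with a median of 163.1, and over 136.7 to 193.9 in wild type, with a median of 168.7. Its difference was -0.06 ± 0.11, with a 95% interval of -0.29 to 0.18, and the knockout was higher at 4 of 8 times. Fth1, the ferritin heavy chain, and Ephx1, the microsomal epoxide hydrolase, differed by 0.04 ± 0.04 and -0.01 ± 0.13 and were not called. Hmox1, haem oxygenase, had a lower signal in the knockout at 7 of 8 times, with a difference of -0.47 ± 0.17 that missed the threshold (adjusted p = 0.0638). The difference was -1.67 at 60 min, where the library labelled wild type 60 min enters. Without the 60 and 480 min arrays it was -0.31 with an adjusted p of 0.0465.

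The metallothioneins bind zinc and copper, scavenge radicals, and are induced by metals through the factor MTF1. Mt1 had signals of 7300, 7360, 7628, 7382, 7610, 7556, 7382 and 6123 in the knockout. In wild type it had 2374, 2766, 3245, 4351, 4568, 4033, 3760 and 3496. Mt2 had 4673, 4248, 4303, 4452, 4773, 5224, 4583 and 3937 in the knockout. Its wild-type signals were 759.9, 874.2, 1098, 2350, 2007, 2185, 2057 and 1236. For both genes the knockout was high and flat and every wild-type array was below it. The differences were 1.06 ± 0.10 for Mt1 (adjusted p = 2.15e-05) and 1.64 ± 0.18 for Mt2 (adjusted p = 5.07e-05, 3.11-fold). Mt1 and Mt2 are neighbouring genes on chromosome 8 with similar products, so cross-hybridisation may join their values; the main Mt1 probe set is of a kind that can match several transcripts, and another Mt1 probe set differed by 0.81.

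**Figure D2:**
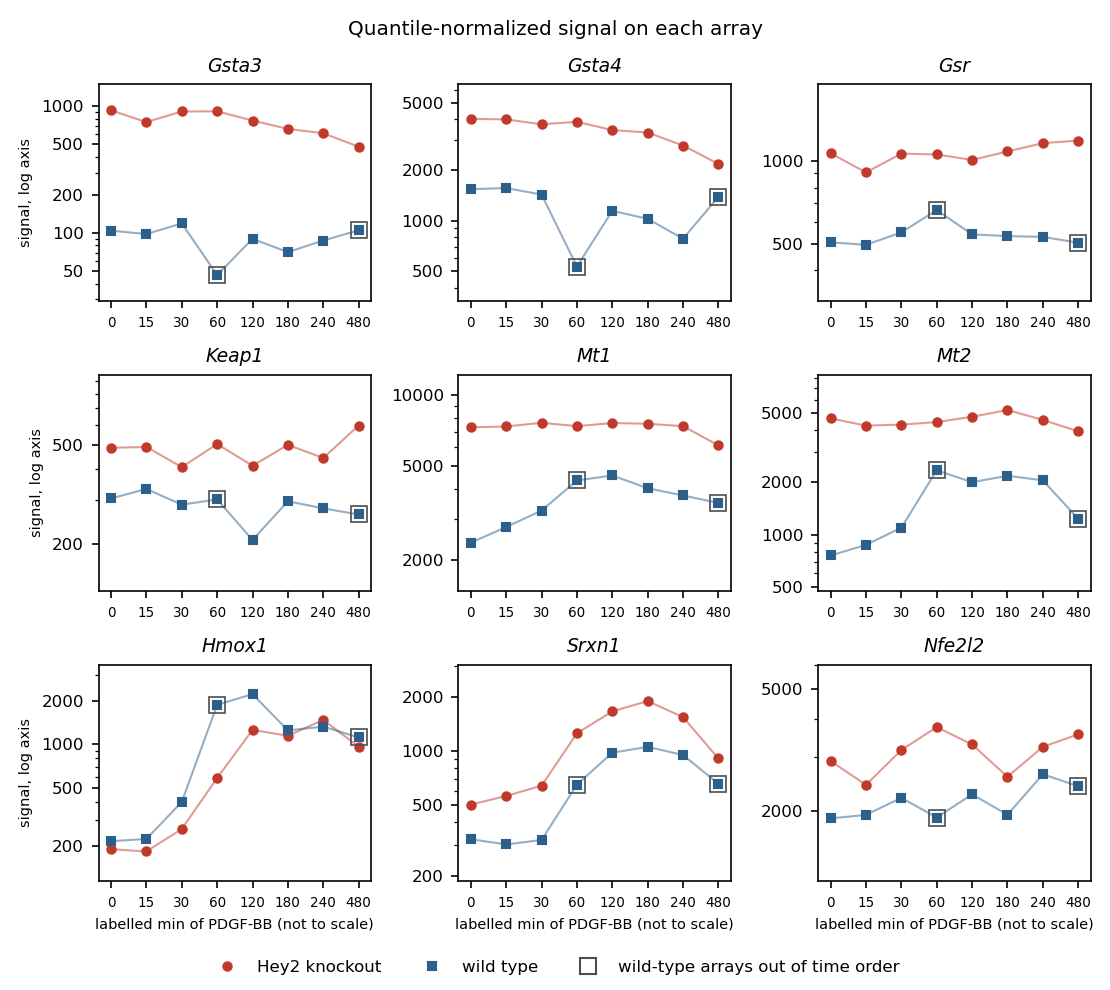
Quantile-normalized signal (log axis) of 9 members on each of the 16 arrays against the labelled minutes of PDGF-BB, with knockout arrays as red circles, wild-type arrays as blue squares, and the 2 wild-type arrays out of time order boxed. The lowest knockout signal is above the highest wild-type signal for Gsta3 (480.3 against 119.4), Gsta4, Gsr, Keap1, Mt1 and Mt2, while Hmox1 and Srxn1 climb in both genotypes.

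Full promoter windows are shown for the members with the largest genotype difference or the clearest change with time, among those with a window available. The antioxidant response element and the metal response element are the sites through which NRF2 and MTF1 are known to act. Short matches printed after the full windows are a selection from members that were higher, not made by size of difference. RefSeq windows of assembly GRCm38.p6, from 250 bases before to 50 after a gene's start, were matched to 33 of the 39 members, including Prdx1, Ftl1 and G6pdx. Hmox1, Gsr, Gclc, Gsta4, Sod3 and Prdx6 were not matched. The letters TGACNNNGC were taken for the antioxidant response element and TGANTCAGC for its MAF-type form, and TGCGCNC or TGCACNC for the metal response element, all on both strands. The MAF-type form was added after the sequences had been read; it contains an AP-1 site, as does any antioxidant match reading TGACTCAGC. The next 2 windows carry antioxidant or MAF-type matches in capitals, at chr1:21240335-21240634 for Gsta3 and chr2:152105274-152105573 for Srxn1, both on the plus strand; a match on the opposite strand appears as its reverse complement.
Gsta3: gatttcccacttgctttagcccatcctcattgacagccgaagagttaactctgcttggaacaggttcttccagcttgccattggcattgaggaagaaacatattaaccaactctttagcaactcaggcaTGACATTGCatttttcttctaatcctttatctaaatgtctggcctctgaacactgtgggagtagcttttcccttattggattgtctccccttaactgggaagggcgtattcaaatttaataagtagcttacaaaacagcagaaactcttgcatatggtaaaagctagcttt
Srxn1: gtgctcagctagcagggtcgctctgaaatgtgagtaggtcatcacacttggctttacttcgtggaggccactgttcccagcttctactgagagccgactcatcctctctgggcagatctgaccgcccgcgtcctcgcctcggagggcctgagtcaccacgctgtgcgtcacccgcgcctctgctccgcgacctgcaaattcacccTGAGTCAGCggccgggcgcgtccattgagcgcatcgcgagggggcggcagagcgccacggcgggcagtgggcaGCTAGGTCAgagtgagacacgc

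Gsta3 has 1 antioxidant match that starts 121 bases before the gene's start. Srxn1 has a MAF-type match 45 bases before its start and, on the opposite strand, an antioxidant match 29 bases after it. The windows of the neighbouring metallothionein genes, at chr8:94178839-94179138 for Mt1 and chr8:94172368-94172667 for Mt2 on the plus strand, carry metal response matches in capitals.
Mt1: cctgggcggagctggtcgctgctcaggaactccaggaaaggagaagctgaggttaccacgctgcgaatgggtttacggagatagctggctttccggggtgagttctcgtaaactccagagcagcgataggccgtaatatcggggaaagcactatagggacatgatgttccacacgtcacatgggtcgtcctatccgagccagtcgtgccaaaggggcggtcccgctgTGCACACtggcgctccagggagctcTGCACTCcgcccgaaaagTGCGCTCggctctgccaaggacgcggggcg
Mt2: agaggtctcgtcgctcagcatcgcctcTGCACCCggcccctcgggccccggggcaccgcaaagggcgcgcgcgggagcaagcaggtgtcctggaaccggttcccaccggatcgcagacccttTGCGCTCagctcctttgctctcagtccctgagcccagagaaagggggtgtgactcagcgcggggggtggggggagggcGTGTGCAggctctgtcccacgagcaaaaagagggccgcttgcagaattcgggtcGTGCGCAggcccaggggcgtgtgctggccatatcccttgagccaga

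The Mt1 window holds 3 metal response matches and the Mt2 window 4, some of them on the opposite strand and so printed as reverse complements. Mt2 also holds the letters of an antioxidant and MAF-type match 79 bases before its start, which Mt1 lacks in this window. Antioxidant matches of Gstm5, Mgst1 and Sod1, which were also higher, are not printed. Other matches of members that were higher follow, that of Mt2 included, each written on the strand that bears the motif. They have 8 bases on either side and the match in capitals.
Nfe2l2: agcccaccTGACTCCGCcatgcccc
Gclm: gtgagagtTGACGGTGCgcccggga
Gstp1: caacgtgtTGAGTCAGCatccgggg
Me1: tgccgccgTGACTCAGCgcttctcg
Pgd: ttcagagcTGACATTGCactgatcg
Mt2: agggggtgTGACTCAGCgcgggggg

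These lie at chr2:75704887-75704911 (Nfe2l2), chr3:122245415-122245439 (Gclm), chr19:4037970-4037994 (Gstp1), chr9:86695904-86695928 (Me1), chr4:149166063-149166087 (Pgd) and chr8:94172531-94172555 (Mt2). The Gclm match is on the strand opposite to the gene and the others are on the gene's own strand. Gsta3 and Pgd share the same 9 letters, as do Me1 and Mt2. The Pgd match lies 4 bases after the start of its window's gene model. Another Pgd window, at chr4:149166656-149166955, holds 0 antioxidant and 0 MAF-type matches. Pgd runs on the minus strand, so this other window lies upstream and the match falls inside the gene by that model. The Pgd match may therefore be transcribed rather than promoter sequence, and it is kept in the counts that follow. An antioxidant match was present for 13 of the 33 member genes, or 39.4%, against 14.0% of 27025 genes in the table. The MAF-type form was present for 5 members, or 15.2%, against 1.4% of genes. Because that form was added after the member sequences had been read, these shares are not a test of an excess. The metal response letters were present for 27.3% of members and 28.2% of genes. Of the tested members, 12 had an antioxidant or MAF-type match, of which 11 were higher in the knockout. A further 18 had windows without one, of which 8 were higher. A member counted as having a match when any of its windows had one. The split was not made over all genes, and it includes the form added after reading the sequences, so no conclusion is drawn from it. A match is a string of letters and does not show binding. Txnrd1, which was not called, was the tested member with a match that was not higher.

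The genotype difference was present in both windows of time. In the early window, 0, 15 and 30 min, 19 members were higher and 1 lower in the knockout (all genes 13.6% and 12.2%). In the late window, 120, 180 and 240 min, 22 were higher and 1 lower (all genes 14.3% and 11.6%). The same 19 members were higher in both windows, as were 9.31% of all genes. Cat, Gclc and Taldo1 were called in the late window and not in the early one. Cat differed by 0.80 late and 0.15 early, Gclc by 0.77 late and 0.26 early, and Taldo1 by 0.40 late and 0.13 early; the tests of these changes in difference gave adjusted p-values of 0.212, 0.461 and 0.564. With time as a block the Cat test was called (adjusted p = 0.0142). Gpx7 was lower in the early window (-0.62, adjusted p = 0.00944), and Gsto1 was lower in the late window (-0.67, adjusted p = 0.00201).

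Time by time, between 25 and 32 of the 35 members had a higher signal in the knockout at the 7 times up to 240 min, where close to an even split was seen over all genes (47.1% to 50.9%). At 480 min, where the library labelled wild type 480 min enters, it was 19 of 35, or 54.3%, against 51.8% of all genes. Gsta3 kept its sign at every time, from 4.15 at 60 min to 2.14 at 480 min. The differences at 60 and 480 min were farthest apart for Gsto1 (-1.83 and 0.64), Gstm1 (1.40 and -0.97), Gsta4 (2.84 and 0.65), Mgst1 (2.02 and -0.11) and Gsta3. The map of differences by time shows these columns apart from the other 6.

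**Figure D3:**
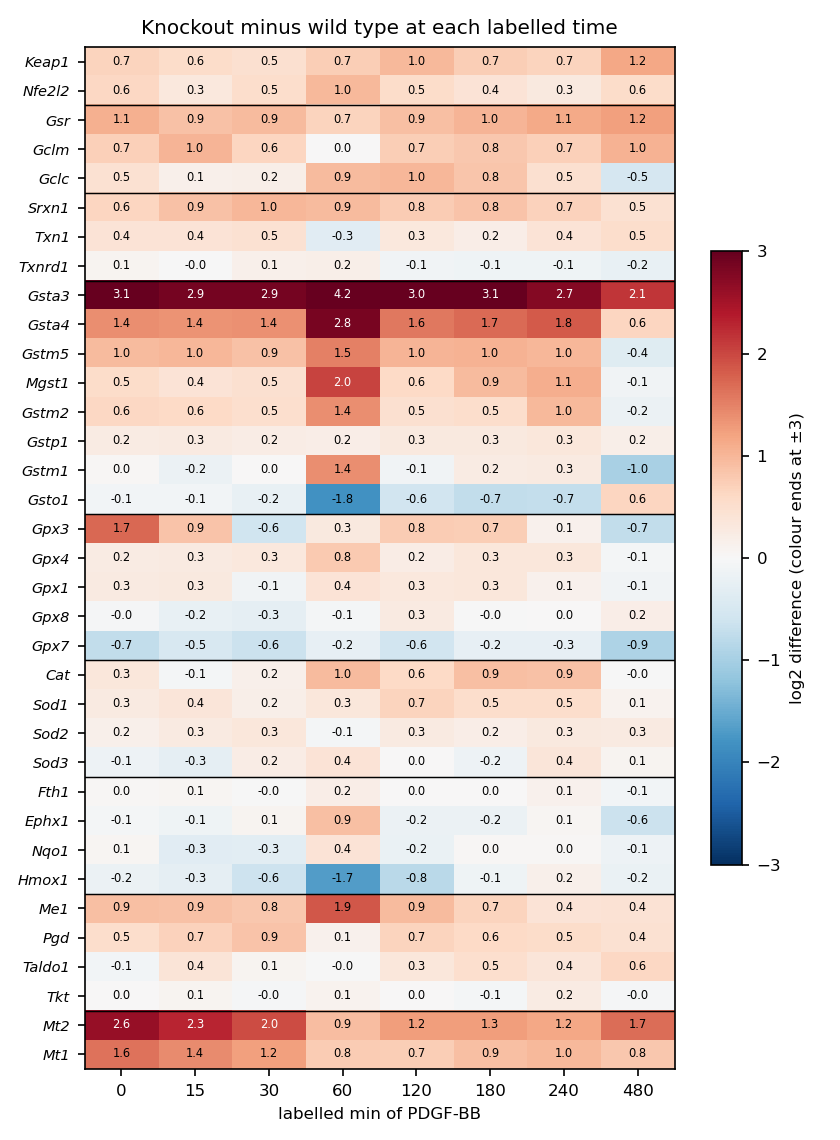
Log2 difference of Hey2 knockout minus wild type for each of the 35 members (rows, lines between roles) at each labelled time in minutes (columns), with red for higher and blue for lower in the knockout. Gsta3 is red throughout (2.14 to 4.15), and the 60 and 480 min columns differ from the others for Gstm1, Gstm5, Mgst1 and Gsto1.

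The response to PDGF-BB was taken as the late minus the early window, 3 arrays per genotype and window, leaving out 60 and 480 min. Signs of RNA quality and of division differed between these windows, and their part in the changes was not tested. The ratio of the 3′ to the 5′ control probe sets for Actb was 1.54 to 2.44 late and 1.95 to 3.71 early in the knockout, and 1.53 to 1.84 late and 2.41 to 3.88 early in wild type. The same ratio for Gapdh was 2.44 to 4.64 late and 3.19 to 5.65 early in the knockout, and 2.59 to 3.21 late and 3.22 to 4.49 early in wild type, so that the wild-type windows did not overlap for either control. Of the 11 mitosis genes 3 fell in the knockout and 7 in wild type, and of the 14 contractile genes 4 rose in the knockout and 7 in wild type. In the knockout 3 members rose and 4 fell, where 8.71% of all genes rose and 10.6% fell. In wild type 7 rose and 12 fell, where 15.3% rose and 21.9% fell. The 3 that rose in both genotypes were Hmox1, Srxn1 and Txnrd1, where 7.64% of all genes did so. Hmox1 averaged 1294 ± 168 late and 211 ± 43.3 early in the knockout, and 1599 ± 541 late and 279 ± 105 early in wild type (SD, n = 3 each). Its rise was 2.60 ± 0.25 in the knockout (adjusted p = 1.49e-05) and 2.51 ± 0.25 in wild type (adjusted p = 5.98e-06). Per array, from 0 to 480 min, Hmox1 had 188.9, 182.6, 260.5, 586.2, 1259, 1146, 1476 and 964.6 in the knockout. In wild type it had 214.7, 222.6, 400.8, 1875, 2222, 1249, 1326 and 1117. Signals were low up to 30 min in both genotypes and high from 120 min on.

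Srxn1 averaged 1702 ± 180 late and 567 ± 69.2 early in the knockout, and 993 ± 54.5 late and 313 ± 11.3 early in wild type (SD, n = 3 each). The rise was 1.58 ± 0.11 in the knockout and 1.65 ± 0.11 in wild type, and the difference of the changes was -0.07, with a 95% interval of -0.42 to 0.28. Txnrd1 rose by 0.58 ± 0.09 in the knockout and 0.77 ± 0.09 in wild type. For Hmox1 the difference of the changes was 0.10, with a wider interval of -0.66 to 0.85.

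The 4 members that fell in both genotypes were Gstm1, Gstm5, Gpx4 and Ephx1, where 9.13% of all genes did so. Their changes were between -0.22 and -0.47 in the knockout and between -0.26 and -0.65 in wild type. The Gpx4 change turned to 0.05 in the knockout and 0.04 in wild type on the arrays as deposited, without normalization. In wild type alone the call was also reached by Cat (-0.79 ± 0.14), Gsta4 (-0.63 ± 0.12), Mgst1 (-0.57 ± 0.13), Gpx7 (-0.56 ± 0.16), Gpx8 (-0.45 ± 0.10), Sod1 (-0.40 ± 0.09), Gstm2 (-0.39 ± 0.13) and Gpx1 (-0.31 ± 0.09). Of these, Gstm2 and Gpx1 turned to 0.03 and 0.09 on the arrays as deposited. Gsto1 rose in wild type, to 2434 ± 473 late against 1356 ± 106 early (SD, n = 3 each), a change of 0.83 ± 0.13. In the knockout Gsto1 had 1520 ± 258 late and 1241 ± 26.6 early, a change of 0.28 ± 0.13 that was not called. Txn1 rose in wild type by 0.24 ± 0.05, and Mt1 and Mt2 also rose there, although the Mt1 change turned to -0.139 with the median over its probe sets.

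With all 16 arrays, 60 min counted as early and 480 min as late, 0 members rose or fell in the knockout, and in wild type 1 rose, Srxn1 at 1.24, and 0 fell. Hmox1 then changed by 2.13 in the knockout (adjusted p = 0.0658) and 1.69 in wild type (adjusted p = 0.0923). The count of members that fell in the knockout was 1 without the knockout 0 min array and 1 without the knockout 240 min array. Shares of all genes under these settings are not given, so these counts do not show whether other genes lost calls as well.

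The change with time differed between genotypes for 1 member, Mt2, in the fit without a time block, and for 5 members with time as a block. It averaged 4860 ± 329 late and 4408 ± 231 early in the knockout, against 2083 ± 91.6 late and 911 ± 172 early in wild type (SD, n = 3 each). Its change was 0.14 ± 0.11 in the knockout and 1.20 ± 0.11 in wild type, and the difference of the changes was -1.07 ± 0.15 (adjusted p = 0.0118, 95% interval -1.40 to -0.73). With the block the difference was called lower for Mt2 (-1.07 ± 0.13, adjusted p = 8.27e-04), Mt1 (-0.55 ± 0.10, adjusted p = 0.00696) and Gsto1 (-0.55 ± 0.10, adjusted p = 0.00837). It was called higher for Cat (0.65 ± 0.13, adjusted p = 0.0142) and Sod1 (0.31 ± 0.08, adjusted p = 0.0477), where 4.17% of all genes were called. Without the block 0.755% of all genes were called, 108 of 14299, and 1591 genes and 6 members had an unadjusted p under 0.05. Mt1 changed by 0.02 ± 0.10 in the knockout, which was not called, and by 0.57 ± 0.10 in wild type, and without the block its difference of -0.55 ± 0.13 missed the threshold (adjusted p = 0.0972). The genotype difference of Mt2 was thus 1.22 in the late window and 2.28 in the early one, and that of Mt1 0.87 late and 1.42 early. The Mt2 test was not called on the arrays as deposited (-1.24, adjusted p = 1), with 60 and 480 min included (-0.61, adjusted p = 0.82), or without the intensity trend (adjusted p = 0.082).

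**Figure D4:**
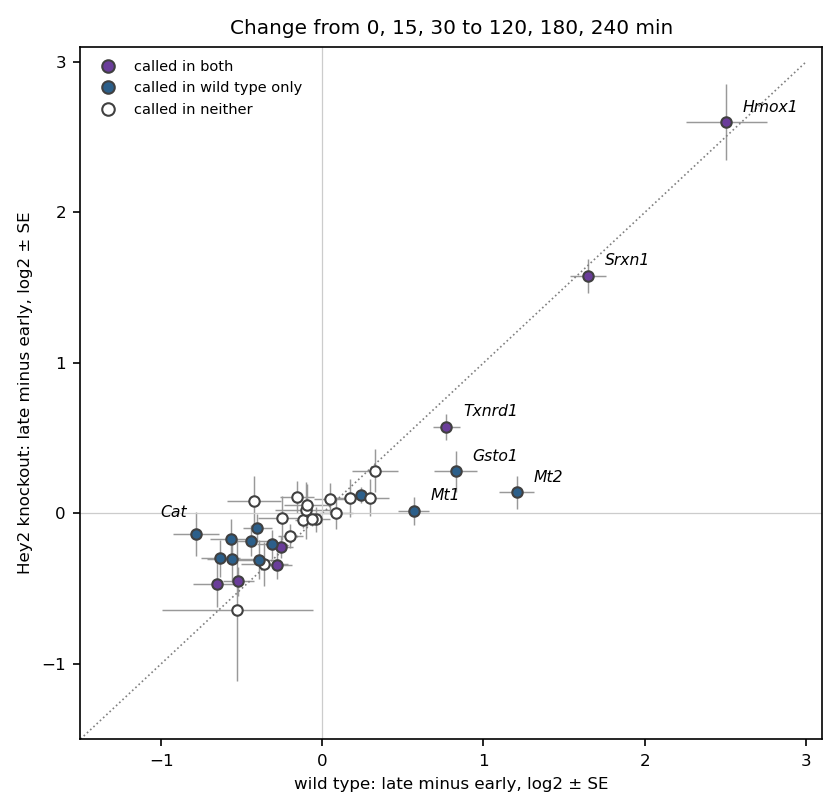
Late minus early change (120, 180, 240 against 0, 15, 30 min, log2, bars ± SE) in Hey2 knockout (vertical axis) and wild type (horizontal axis) for the 35 members; purple points were called in both genotypes, blue in wild type only, white in neither, and the dotted line marks equal change. Hmox1 and Srxn1 lie on the line at 2.60 and 1.58 in the knockout, while Mt2 lies below it, with 0.14 in the knockout and 1.20 in wild type.

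The knockout library at 480 min lay outside both windows. Relative to its own early mean, Hmox1 stood at 2.19 and Gsto1 at 1.08, while Gstm5, Gstm1, Gsta4, Gsta3 and Gstm2 stood at -1.27, -1.06, -0.85, -0.83 and -0.83. Those 5 transferases were at their lowest knockout signal on that array. A single array carries no replicate check.

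A further list of 88 genes of the pathway was also written with earlier results known. Of 76 tested, 15 were higher and 11 lower in the knockout, with a median difference of 0.02 (all genes 16.5% and 14.1%). Leaving out arrays of 60 and 480 min gave 25 higher and 18 lower (all genes 20.9% and 20.2%). Past 1 on the log2 scale were 6 genes. Pir, pirin, an iron-binding nuclear protein, ranged over 317.7 to 1428 in the knockout, against 25.1 to 67.0 in wild type, a difference of 4.28 ± 0.28. Nfe2l3, a relative of NRF2 of the same factor family, ranged over 240.1 to 460.3 in the knockout, against 47.7 to 82.5 in wild type (2.49 ± 0.11). Ggt7, of the gamma-glutamyltransferase family, ranged over 38.0 to 60.3 in the knockout, against 3.14 to 14.8 in wild type, where every array was below the filter signal, so no size is given. Aldh1a1, a retinaldehyde dehydrogenase, was higher by 1.09 ± 0.16, and Osgin1, a known NRF2 target, by 1.01 ± 0.20. Gstk1, the kappa class transferase, was lower, with a difference of -1.32 ± 0.19. Among the NRF2 partners and repressors, 1 of 9 was higher and 2 were lower; Cul3, the scaffold of the ligase that uses KEAP1, was lower, with a difference of -0.48 ± 0.08. Slc7a11, the cystine transporter that feeds glutathione synthesis, was dim and not called at -0.60 ± 0.31.

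With time, 14 of the 76 rose and 11 fell in the knockout, where 8.71% and 10.6% of all genes did. In wild type 17 rose and 25 fell, where 15.3% and 21.9% of all genes did. Gss, glutathione synthetase, rose by 1.26 in the knockout and 1.32 in wild type, and Osgin1 by 1.26 and 1.72 in the same order. Slc30a1, a zinc exporter induced through MTF1, rose by 0.99 in the knockout and 1.84 in wild type. Maff, a small MAF partner, rose by 1.33 in the knockout and 1.48 in wild type. Among those that fell, Sesn1 changed by -1.87 in the knockout and -2.91 in wild type, and Txnip by -1.87 and -1.93.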

How the data were processed

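Total RNA of 16 cultures was hybridised to Affymetrix mouse arrays. The deposited values were linear signal intensities per probe set, and MAS5 is the tool that the submitters' processing notes name. Neither its version nor its target scaling value is stated in those notes. The deposited intensities were not on a common scale (2% trimmed mean 80.99 to 342.5), so the arrays were quantile normalized, which equalises their distributions and hides any shift shared by all genes. Of 45101 probe sets, 34945 carried 1 gene symbol in the platform annotation. Probe sets above a signal of 16 (the 40th percentile) on 3 or more arrays entered the tests, and the brightest tested probe set stood for a gene. The offset of 4.856 was the 20th percentile of all signals. Of 21 members with several tested probe sets, 0 had calls in opposite directions and 14 had the same call on each.

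The genotype fit used limma 3.58.1 in R 4.3.3 on 16 arrays with time as a factor (7 residual degrees of freedom). The window fit used 12 arrays, 3 per genotype and window (8 residual degrees of freedom). Empirical Bayes moderation included an intensity trend, and precision is limited by how few arrays there are. Fits were tested on simulated data. Values on every array are given for members called with a log2 difference or change of at least 1, or for a difference of change. The same holds for Nfe2l2 and Keap1 and for groups that did not overlap. Other pathway genes are named when called with a genotype difference of at least 1. Cul3, Slc7a11, Gss, Slc30a1, Maff, Sesn1 and Txnip were chosen after their values were seen. The members and lists were chosen with earlier results of these data known. Alternatives covered scaling, offset, filter, variance model, probe sets, the block of time, each time or array left out, and the place of the 60 and 480 min arrays.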

Additional observations from a re-analysis of the deposited data

Results flagged for a closer look

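In each genotype's 8 arrays, and in the 8 differences between genotypes, 105 series of the 35 members were searched for an array whose gap to its nearest neighbour, over the whole range, exceeded Dixon's critical value for 8 samples. There were 10 such values, and chance alone flags about 1 in 20 series. Of these, 7 came from the 60 min arrays. At 60 min the knockout minus wild-type difference was 0.01 for Gclm (the other times 0.65 to 1.04), -0.35 for Txn1 (0.21 to 0.53) and 1.87 for Me1 (0.40 to 0.94). The library labelled wild type 60 min stood apart in log2 level for Gsr (9.38, the others 8.97 to 9.11), Txn1 (12.79, the others 11.99 to 12.36), Sod2 (10.77, the others 10.35 to 10.54) and Me1 (8.87, the others 9.90 to 10.45). At 480 min the Gstm5 difference was -0.37, against 0.88 to 1.52 at the other times. The wild-type 240 min array was low for Tkt (12.2, the others 12.47 to 12.63), and the knockout 480 min array was low for Mt1 (12.58, the others 12.83 to 12.90). The knockout minus wild-type difference of change for Mt2, -1.07, was called by a test of that difference in the fit without a time block (adjusted p = 0.0118).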

How the results depend on the processing

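All 23 members called between genotypes had the same sign under all 19 alternatives, and 14 of them kept their call in each. Leaving out 1 time point gave 17 to 22 members higher, 1 to 2 lower and a median of 0.326 to 0.412. Of 14299 genes, 1971 to 2585 were then higher and 1603 to 2340 lower. On the signals as deposited the median of all genes was 0.279 instead of -0.018, and 87.9% of called genes were higher, against 54% after quantile normalization. The member median was then 0.656, which is 0.376 above all genes (0.391 after normalization). With that scaling 0 members were lower between genotypes, where 259 of 14542 genes were. In the early window 5 members were higher and 0 lower, and in the late window 6 were higher and 0 lower. In the knockout 0 fell, in wild type 3 rose and 0 fell, and 0 differed in change. For the window and change counts of this section, all-gene shares under the same setting are not given here. Those counts therefore do not set the members apart from other genes. Changes that turned round there were Gpx4 at 0.051 in the knockout, and Gstm2 at 0.034, Gpx1 at 0.093 and Gpx4 at 0.04 in wild type. The median over probe sets turned the Mt1 change in wild type to -0.139. With 60 min as early and 480 min as late, 0 members rose or fell in the knockout, 1 rose and 0 fell in wild type, 0 had a called difference of change, 12 were higher and 0 lower in the late window, and the wild-type Ephx1 change turned to 0.04. Without the 60 and 480 min arrays 3 members were lower between genotypes (all genes 20.2%). The count that fell in the knockout was 2 with a common trimmed mean, with no filter and with the median over probe sets, and 1 without the intensity trend, where 0 members had a called difference of change. Leaving out 1 array gave 3 rising and 1 to 6 falling in the knockout, 7 to 8 rising and 8 to 15 falling in wild type, 16 to 19 higher and 0 to 1 lower in the early window, and 20 to 23 higher and 1 lower in the late window. The difference of change was called higher for 0 to 2 members and lower for 1 to 2, with 2 higher without the wild-type 120 min array and 2 lower without the wild-type 30 min array. With time as a replicate block the difference of change was called higher for 2 members (Cat, Sod1) and lower for 3 (Mt2, Mt1, Gsto1). Without the replicate block of time the genotype fit called 21 members higher (all genes 2024 of 14299) and lost Srxn1 (adjusted p = 0.11). The labels do not say that arrays of one time share a culture or day. Over single genes, 2205 values were recomputed: 1964 kept their side of the threshold, 228 lost the call and 7 gained one. A further 6 turned round and were called in the main or the alternative analysis. Direction was not compared for values called in neither. Where a value changed, the cause was not tested.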
